A study of Mus musculus with 6 samples.

Results

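The transcripts of 9 genes of the mitochondrial calcium uniporter and the VDAC channels were examined in platelet RNA: Mcu and its paralogue Mcub, the uniporter regulators Smdt1 and Micu2, the exchangers Slc8b1 and Letm1, and Vdac1, Vdac2 and Vdac3. They were chosen by symbol, and all 9 were found among the 14975 genes with deposited values. Of these, 6 had a mean of at least 1 FPKM (fragments per kilobase of gene, relative to library size) and were tested along with all other genes at that level, 4412 in all. Mcub, Slc8b1 and Letm1 were below this level and are described by their values.

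Calcium enters mitochondria through a pair of membranes, and each has its own channels. The outer membrane is crossed by the voltage-dependent anion channels (VDAC), β-barrel pores that carry metabolites, ATP and calcium and that bind hexokinase and proteins of the BCL2 family. The inner membrane is crossed by the mitochondrial calcium uniporter, a complex built on the pore subunit MCU, and calcium leaves the matrix again through exchangers. In platelets, mitochondrial calcium is known for its part in ATP production and in the permeability transition of procoagulant platelets.

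The libraries came from peripheral blood platelets of C57BL/6 mice, 3 labelled WT and 3 labelled AML, which are called control and pre-AML here after the paper. In the paper, control mice were irradiated and transplanted with normal bone marrow, and pre-AML mice were sub-lethally irradiated and transplanted with GFP+ cells of primary recipients of progenitors transduced with an MLL-AF9 retrovirus. Mice used in that work were female, 8 to 12 weeks old, and the pre-AML stage was set at 1 week after transplantation, a time that the labels do not give. By the paper's account, all groups had thus undergone irradiation and transplantation. The label WT does not say so, and the paper uses that name for un-irradiated mice. Platelets of the pre-AML hosts can come from megakaryocytes of the host or of the graft. The series text speaks of 2 replicates a group and of pools of 3 to 4 mice, the paper of 3 independent mice. The p-values here therefore rest on the spread between libraries, which may not be the spread between mice.

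The platelet identity of the RNA was clear, with all 11 platelet marker genes above 0 in every library, led by Pf4 and Ppbp. Recovered reads on the listed genes were between 11935989 and 14905191 in 5 libraries and 17778919 in pre-AML 3. Pre-AML 3 stood apart on the main axis of variation, at 41.9 against -12.7 to -2.12 for the others, and its FPKM values had been divided by a library size 1.31 times its recovered reads, against 0.983 to 1.01 times in the other 5. Of the monocyte and macrophage markers 11 of 12, of the B cell markers 7 of 8 and of the T and NK cell markers 9 of 10 were above all controls in this library. These counts were 4, 0 and 8 in pre-AML 1, in the same order of lists. In pre-AML 2 they were 7, 6 and 7. In pre-AML 3, 0 of 11 platelet, 3 of 5 erythroid and 2 of 9 neutrophil markers were above all controls. The share of all listed genes above all controls was not taken, so these counts have no background beside them. The neutrophil markers, S100a8 and S100a9 highest, summed to at most 3.49 FPKM in any library, and the erythroid markers, led by Hba-a1 and Hbb-bt, to between 2350 and 2991 FPKM. In bulk RNA of this kind, fewer cells of a type and less RNA per cell cannot be told apart.

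The start of each gene's regulatory region could be read for 6 of the 9 genes from the RefSeq promoter table (GRCm38.p6). The 250 bases before the start are shown for the paralogues Mcu and Mcub, which lie far apart in platelet level, and for the upstream of 2 listed starts of Vdac1, which is abundant, each 5′ to 3′ on the strand of the gene with every CG dinucleotide in capitals. They lie at chr10:59616693-59616942 on the minus strand, chr3:129970207-129970456 on the minus strand and chr11:52360601-52360850 on the plus strand.
Mcu: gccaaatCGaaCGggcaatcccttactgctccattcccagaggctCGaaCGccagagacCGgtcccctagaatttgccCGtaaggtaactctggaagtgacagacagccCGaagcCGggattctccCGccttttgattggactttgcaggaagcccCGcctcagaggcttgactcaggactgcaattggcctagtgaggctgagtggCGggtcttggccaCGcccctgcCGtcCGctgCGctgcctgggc
Mcub: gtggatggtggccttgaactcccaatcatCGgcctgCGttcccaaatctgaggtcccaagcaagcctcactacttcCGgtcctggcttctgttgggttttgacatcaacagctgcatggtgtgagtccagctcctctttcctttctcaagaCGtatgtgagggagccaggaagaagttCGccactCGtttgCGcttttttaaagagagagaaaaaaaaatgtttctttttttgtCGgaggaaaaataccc
Vdac1: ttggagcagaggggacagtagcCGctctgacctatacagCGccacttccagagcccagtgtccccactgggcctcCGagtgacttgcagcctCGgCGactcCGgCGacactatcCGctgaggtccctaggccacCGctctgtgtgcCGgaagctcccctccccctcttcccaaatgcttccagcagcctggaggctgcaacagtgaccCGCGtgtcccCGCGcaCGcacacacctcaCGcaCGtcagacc

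The Mcu and Vdac1 promoters held 15 and 17 CG dinucleotides and the Mcub promoter 8, where the median of 32851 mouse promoters of this length was 6. Their GC content was 60.8%, 65.2% and 48%. Among the promoters not printed, those of Letm1, Smdt1 and Micu2 held 17, 23 and 14 CG dinucleotides. Letm1, with as many as Vdac1, had the lowest control mean FPKM of the 9 genes. The NRF1 motif, searched on both strands as GCGC, any base and TGCGC, was in none of the 3 printed and in 3.74% of all promoters. The ETS core CCGGAAG, searched likewise, was found 1 time each before Mcub and Vdac1 and not before Mcu, and 6.91% of all promoters held it. Such matches describe letters and not sites that are bound.

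The platelet level of these genes spanned more than 3 orders of magnitude. In control platelets the order by mean FPKM was Vdac3, Smdt1, Vdac1, Micu2, Vdac2, Mcu, Mcub, Slc8b1 and Letm1. The values of Vdac3, Smdt1, Vdac1, Micu2 and Vdac2 did not overlap between neighbours, whereas those of Vdac2 and Mcu did, as did those of Mcub, Slc8b1 and Letm1, which all lay below Mcu. Vdac3 and Smdt1 stood, by the mean over 6 libraries, above 98.1% and 98.2% of all listed genes, and Vdac1 above 96.8%. Mcu and Vdac2 stood above 82.8% and 82.7% of them.

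**Figure D1:**
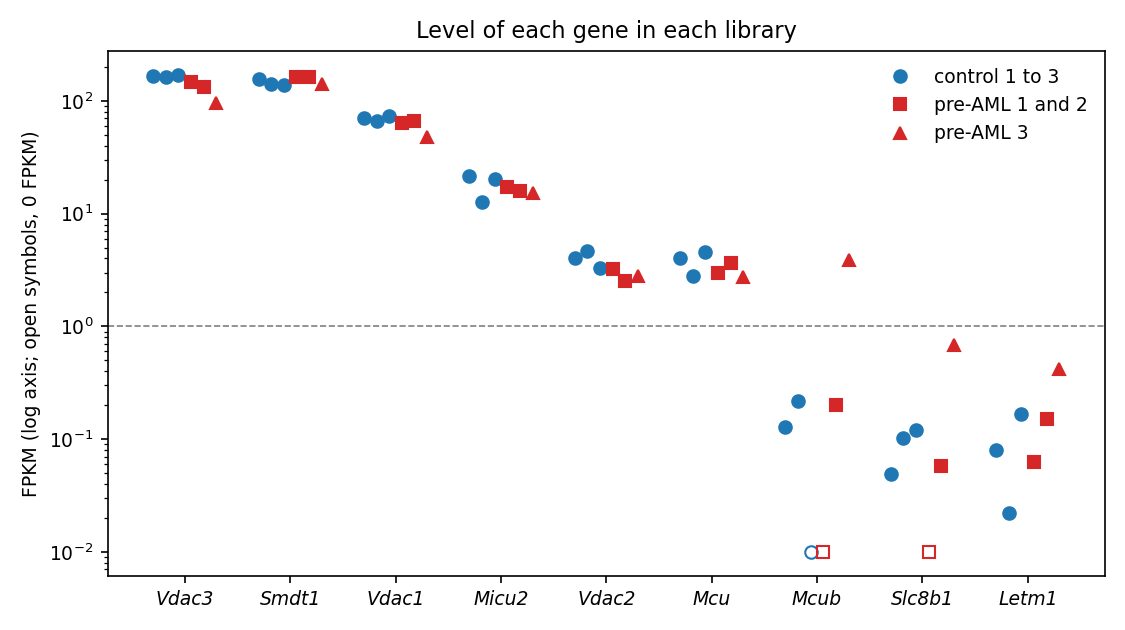
FPKM (log axis) of the 9 genes in each of the 6 libraries, ordered by the control mean, with open symbols at the foot of the plot for values of 0 and a dashed line at 1 FPKM. The 3 VDAC genes have lower values in all pre-AML libraries than in any control on this scale, and Mcub, Slc8b1 and Letm1 are highest in pre-AML 3.

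VDAC transcripts were lower in pre-AML than in control platelets in every library, for each of the 3 isoforms, but no difference passed the test across all genes, and with libraries rescaled to equal sums the groups overlapped for Vdac1 and Vdac2. The group means were lower by 15.3% for Vdac1, 28.6% for Vdac2 and 24.9% for Vdac3. Libraries of the groups did not overlap for these 3 of the 6 tested genes, where 12.8% of all tested genes were lower without overlap, and 0 of the 6 were higher without overlap, beside 6.14% of all genes. The platelet markers, of which 0 passed the test, had a median log2 fold change of -0.16. Of the 11, 8 were below 0, beside 58.5% of all tested genes. Without pre-AML 3 the median was -0.079, and 6 of 11 were below 0, beside 53.6% of all tested genes. Ppbp and Gp6 (picked after their values were seen) were the 2 markers lower without overlap, beside 12.8% of all tested genes. The summed level of the 11 markers was 89918 to 113959 FPKM in the controls and 90978, 92341 and 61393 FPKM in the pre-AML libraries. Most of this sum was Pf4 and Ppbp, and it was below the control range only in pre-AML 3. In that library Itga2b, Gp9, Tubb1 and Gp1bb lay within their own control ranges, and the other markers lay below theirs. The part of this in the VDAC values was not tested.

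Vdac3 (Entrez gene 22335, chromosome 8 of GRCm38, 22577075 to 22593813, minus strand) encodes the isoform known for its redox-sensitive cysteines. It had 167, 162 and 171 FPKM in controls 1 to 3, and the pre-AML libraries, in the same order, held 147, 133 and 96.6 FPKM. The lowest control was thus above the highest pre-AML library, and pre-AML 3 was the lowest of all. The means were 167 ± 4.60 FPKM (SD, n = 3) and 125 ± 25.9 FPKM (SD, n = 3). The log2 fold change of FPKM + 1 was -0.43 (standard error 0.17, 95% confidence interval -0.82 to -0.038, Benjamini-Hochberg adjusted p = 0.522 by limma-trend). An estimated 10594 to 12356 reads per library stood behind these values, so counting error was small beside the spread of libraries. Without pre-AML 3 the log2 fold change was -0.26.

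Vdac1 (Entrez gene 22333, chromosome 11, 52360860 to 52389397, plus strand), the isoform best known as a docking site for hexokinase, had 70.8, 67.0 and 73.6 FPKM in the controls and 64.1, 66.8 and 48.1 FPKM in the pre-AML libraries. The groups were barely apart, at 67.0 against 66.8 FPKM for the nearest libraries. Means were 70.5 ± 3.29 FPKM (SD, n = 3) and 59.7 ± 10.1 FPKM (SD, n = 3). On the log2 scale the difference was -0.25 (standard error 0.16, 95% confidence interval -0.61 to 0.11, limma-trend adjusted p = 0.555), and without pre-AML 3 it was -0.10.

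Vdac2 (Entrez gene 22334, chromosome 14, 21825238 to 21845879, plus strand), which is known to hold the apoptosis effector BAK at the outer membrane, was the rarest isoform. Its values were 4.06, 4.69 and 3.30 FPKM in the controls and 3.25, 2.54 and 2.81 FPKM in the pre-AML libraries, again without overlap but with only 3.30 against 3.25 FPKM between the nearest libraries. The means of 4.01 ± 0.700 FPKM (SD, n = 3) and 2.87 ± 0.355 FPKM (SD, n = 3) gave a log2 fold change of -0.37 (standard error 0.16, 95% confidence interval -0.73 to -0.0069, limma-trend adjusted p = 0.522). It rested on 183 to 315 reads per library and was -0.36 without pre-AML 3. A stretch of 25 exonic bases of Vdac2 is shared with Comtd1 on the other strand, which unstranded reads cannot assign.

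**Figure D2:**
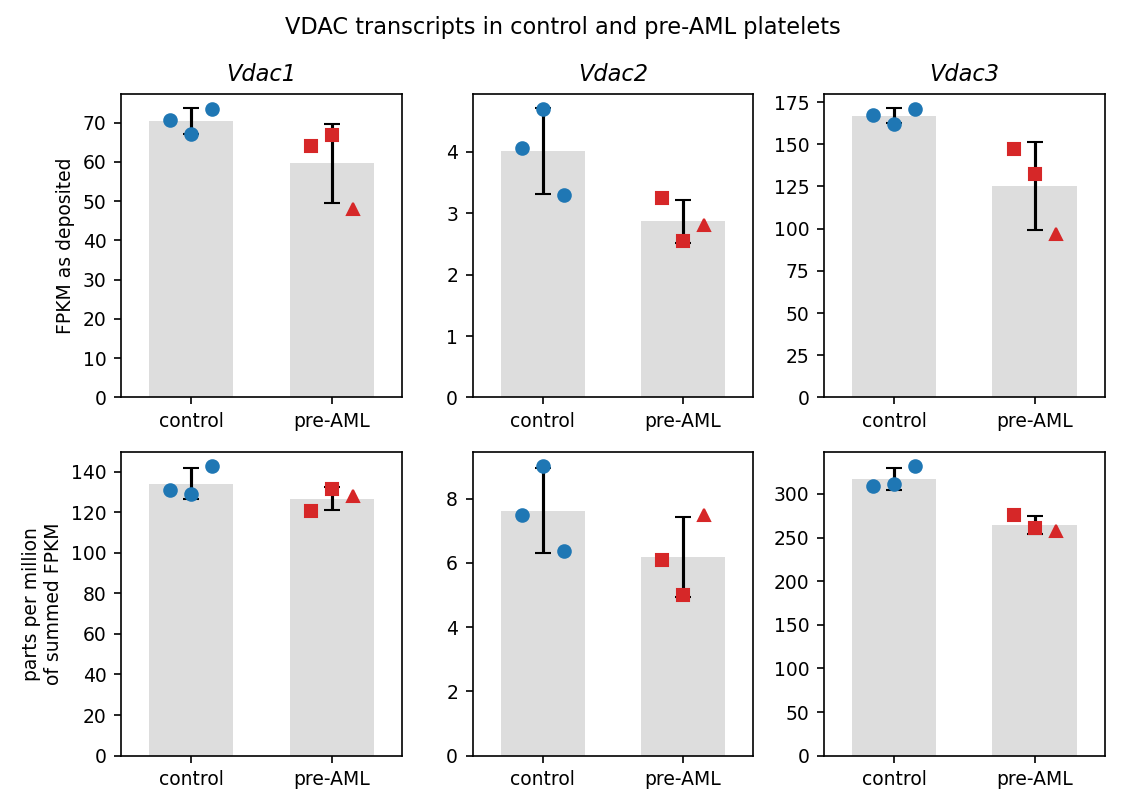
Levels of Vdac1, Vdac2 and Vdac3 in control (circles) and pre-AML platelets (squares, and a triangle for pre-AML 3), as deposited FPKM (top) and as ppm of the summed FPKM of each library (bottom); bars are means and error bars SD over 3 libraries, and axes start at 0. Rescaled, Vdac3 still has 276, 261 and 257 ppm in pre-AML against 309 to 332 in control libraries, while Vdac1 and Vdac2 overlap between the groups.

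The deposited scaling bears on these values, because pre-AML 3 was divided by the larger library size. With every library rescaled to the same summed FPKM and values given as ppm of that sum, the median log2 fold change of all tested genes moved from -0.055 to 0.081, and the share of genes with a negative sign from 58.5% to 37.6%. On that scale Vdac3 had 317 ± 12.5 ppm (SD, n = 3) among controls, against 265 ± 10.0 ppm (SD, n = 3) among pre-AML libraries, with no overlap, and a log2 fold change of -0.26 (limma-trend adjusted p = 0.428, within a range of 0.198 to 0.743 over its alternatives). Vdac1 and Vdac2 then overlapped between groups, at -0.081 and -0.23.

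Base composition also moved with the groups. Across tested genes, the deviation of a library from the mean was related to GC content with a Spearman correlation of -0.40 to -0.30 in the controls, and of -0.046, 0.31 and 0.49 for the pre-AML libraries in order. The mean was taken over the libraries of both groups, so these correlations are not independent of each other. Vdac3 has a GC content of 39.1%, and only 2.84% of the tested genes have a lower one. After removing from each library its dependence on the length and base composition of genes, the log2 fold change of Vdac3 was -0.11 (95% confidence interval -0.30 to 0.080, limma-trend adjusted p = 0.743). For Vdac1, at 51.1% GC, the value was -0.21 after the same step, and for Vdac2, at 47.2% GC, it was -0.24 (95% confidence interval -0.61 to 0.12).

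Within each library the isoforms can be set against each other, which no library scaling affects, although base composition can. Vdac3 made up 69.1%, 69.3% and 69.0% of the summed VDAC FPKM in the controls and 68.6%, 65.7% and 65.5% in the pre-AML libraries. The Vdac1 share was 29.2%, 28.7% and 29.7% in the controls and 29.9%, 33.1% and 32.6% in pre-AML platelets. Both shares were without overlap between groups, with a difference, pre-AML minus control, of -2.57 percentage points for Vdac3 and 2.68 for Vdac1 (exact two-sided permutation test, p = 0.1 each, the smallest p that 3 against 3 libraries allow, and adjusted p = 0.15 over 3 isoforms). With the trends with length and GC removed, the directions turned: the Vdac3 share was 66.9% ± 0.420 (SD, n = 3) among controls, against 68.5% ± 1.77 (SD, n = 3) among pre-AML libraries, and the Vdac1 share 31.3% ± 0.652 (SD, n = 3) against 29.9% ± 2.05 (SD, n = 3) (exact permutation tests, p = 0.2 and 0.4). As deposited, Vdac2 held 1.67% ± 0.340 (SD, n = 3) among controls, against 1.56% ± 0.326 (SD, n = 3) among pre-AML libraries (exact permutation test, p = 0.7).

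These shares depend on the gene length in the FPKM. For most genes the lengths behind the deposited values follow the union of all annotated exons. This union is 5420 bases for Vdac3, and its longest protein-coding transcript is 1423 bases. For Vdac3 the union length did not give whole reads in all libraries, so its reads are estimates. With reads divided by the longest coding transcript, Vdac3 made up 86.3% ± 0.0316 (SD, n = 3) of VDAC among controls, against 84.9% ± 0.983 (SD, n = 3) among pre-AML libraries. A pseudogene of it, Vdac3-ps1, is annotated on chromosome 13 and is not among the listed genes, and reads that it shares with Vdac3 cannot be assigned with certainty.

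At the inner membrane, the deposited values of all 3 tested uniporter genes overlapped between the groups, and none passed the test.

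Mcu (Entrez gene 215999, chromosome 10, 59446984 to 59616692, minus strand) encodes the pore subunit. It had 4.03, 2.79 and 4.58 FPKM in the controls and 2.98, 3.66 and 2.73 FPKM in the pre-AML libraries, so control 2 lay among the pre-AML values. The means were 3.80 ± 0.918 FPKM (SD, n = 3) and 3.12 ± 0.483 FPKM (SD, n = 3), and the log2 fold change was -0.21 (standard error 0.18, 95% confidence interval -0.62 to 0.21, limma-trend adjusted p = 0.642). Leaving out control 2 gave -0.37, leaving out control 3 gave -0.089, and rescaling the libraries gave -0.075. From 272 to 441 reads per library fell on Mcu.

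Smdt1 (Entrez gene 69029, chromosome 15, 82338959 to 82349091, plus strand) encodes EMRE, the small protein that ties the calcium-sensing regulators to the pore and is required for its conduction in animals. Its transcript was far more abundant per length than that of Mcu, at 155, 141 and 138 FPKM in the controls and 164, 164 and 141 FPKM in the pre-AML libraries. Pre-AML 1 and pre-AML 2 were above all controls, and pre-AML 3 lay among the controls. Means of 145 ± 9.03 FPKM (SD, n = 3) and 156 ± 13.6 FPKM (SD, n = 3) gave a log2 fold change of 0.11 (standard error 0.13, 95% confidence interval -0.19 to 0.41, limma-trend adjusted p = 0.734). Rescaling the libraries gave 0.28 (95% confidence interval 0.049 to 0.51, limma-trend adjusted p = 0.428), and all 3 pre-AML libraries were then above the controls. Smdt1 shares 245 exonic bases with Pheta2 on the same strand, so part of its reads cannot be assigned with certainty.

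Micu2 (Entrez gene 68514, chromosome 14, 57916261 to 57999262, minus strand) encodes a calcium-sensing gatekeeper of the pore. It had 21.4, 12.7 and 20.4 FPKM in the controls and 17.3, 15.9 and 15.3 FPKM in the pre-AML libraries, where control 2 was the lowest and the other controls the highest. The log2 fold change was -0.13 (standard error 0.20, 95% confidence interval -0.58 to 0.33, limma-trend adjusted p = 0.801). It was 0.00078 without control 1 and 0.034 with the libraries rescaled, so its sign was not stable.

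Control 2 had the lowest control value of Mcu as well as of Micu2, and ratios to Mcu were taken within each library. On the log2(FPKM + 1) scale Micu2 stood above Mcu by 2.16, 1.86 and 1.94 in the controls and by 2.20, 1.86 and 2.13 in the pre-AML libraries (exact permutation test, p = 0.8). The Smdt1 level stood above Mcu by 4.94 ± 0.29 (SD, n = 3) among controls, against 5.26 ± 0.11 (SD, n = 3) among pre-AML libraries, and the groups overlapped (exact permutation test, p = 0.2, adjusted p = 0.533 over 4 ratios). This difference of 0.32 was 0.17 without control 3. Summed VDAC stood above Mcu by 5.68 ± 0.25 (SD, n = 3) and 5.51 ± 0.23 (SD, n = 3) (exact permutation test, p = 0.4), and the difference of -0.17 was -0.032 without control 2, -0.30 without pre-AML 1, -0.076 without pre-AML 3 and -0.0052 with length and GC trends removed.

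Vdac3 and Smdt1, the members of highest FPKM in the outer and inner membrane, stood in opposite order in the groups as deposited, a comparison chosen after their values were seen. The ratio of their FPKM values was 1.08, 1.15 and 1.24 in the controls and 0.894, 0.808 and 0.687 in the pre-AML libraries. Every control was above every pre-AML library (exact permutation test, p = 0.1, the smallest p possible). Per length of the longest coding transcript, from estimated Vdac3 reads, the ratio was 2.10 ± 0.144 (SD, n = 3) among controls, against 1.45 ± 0.189 (SD, n = 3) among pre-AML libraries. Vdac3 was then the higher gene in both groups. The genes differ in GC content, at 39.1% and 53.1%. With length and GC trends removed, the ratio was 0.993, 1.03 and 1.06 in the controls and 0.891, 0.872 and 0.882 in the pre-AML libraries, a smaller difference that was again without overlap (exact permutation test, p = 0.1).

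**Figure D3:**
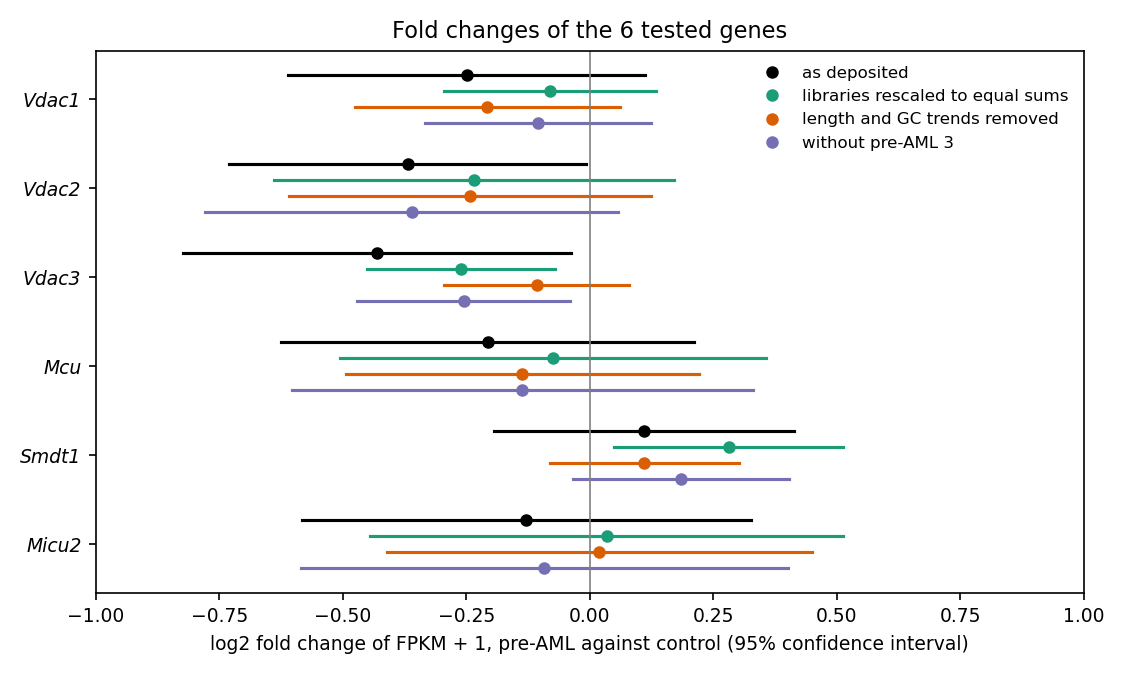
Log2 fold change of FPKM + 1 in pre-AML against control platelets for the 6 tested genes, with 95% confidence intervals from limma-trend, for the deposited values and 3 other settings. Vdac3 lies between -0.43 and -0.11, and Micu2 lies on both sides of 0.

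Mcub, Slc8b1 and Letm1 were low in 5 libraries, with at most 4, 5 and 22 reads, and higher in pre-AML 3. Mcub (Entrez gene 66815, chromosome 3, 129914960 to 129970206, minus strand) encodes a paralogue of MCU that lowers conduction when it enters the pore. It had 0.129, 0.216 and 0 FPKM in the controls, 0 and 0.201 FPKM in the first pair of pre-AML libraries, and 3.90 FPKM in the pre-AML 3 library. These values stand for 2, 4 and 0 reads in controls 1 to 3, and for 0, 4 and 120 reads in the pre-AML libraries in order. A count of 0 allows up to 0.191 FPKM for control 3 and up to 0.171 FPKM for the pre-AML 1 library, which would have gone unseen at a limit of 3 reads, counting error only.

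In pre-AML 3 the FPKM of Mcub was higher than that of Mcu, which was 2.73, while in the other 5 libraries Mcub was lower. This order rests on the gene length: per longest coding transcript, Mcu had 6.58 FPKM in pre-AML 3 against 3.90 FPKM for Mcub, so Mcu was the higher gene in all 6 libraries. The log2 ratio of Mcub to Mcu was 0.40 in pre-AML 3 and between -2.48 and -1.64 elsewhere on the log2(FPKM + 1) scale. Over all libraries the group difference in this ratio was 0.91 (exact permutation test, p = 0.4), and without pre-AML 3 it was 0.12.

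Slc8b1 (Entrez gene 170756, chromosome 5, 120511168 to 120534024, plus strand) encodes NCLX, the sodium-calcium exchanger that lets calcium leave the matrix. It had 2, 5 and 5 reads in the controls, then 0, 3 and 55 in the pre-AML libraries, or 0.681 FPKM for pre-AML 3 against at most 0.121 FPKM elsewhere. Letm1 (Entrez gene 56384, chromosome 5, 33739673 to 33782817, minus strand) encodes an inner membrane protein of proton-coupled cation exchange. Its reads were 9, 3 and 19 in the controls and 8, 22 and 95 in the pre-AML libraries, or 0.422 FPKM in pre-AML 3 against at most 0.165 FPKM elsewhere.

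With no filter on low values the log2 fold changes of Mcub, Slc8b1 and Letm1 were 0.70, 0.15 and 0.15 (limma-trend adjusted p = 0.705, 0.779 and 0.705). The sums of the B cell, monocyte and macrophage, and T and NK cell markers were also highest in pre-AML 3. In pre-AML 1 and pre-AML 2, Mcub had 0 and 4 reads, Slc8b1 0 and 3, and Letm1 8 and 22. The 8 B cell markers in the table, led by Cd79b and Cd79a, summed to between 0.250 and 0.710 FPKM in the controls, while the pre-AML libraries, in order, had sums of 0.209, 4.77 and 62.5 FPKM, with Pax5 and Blk at 0 in all controls. The monocyte and macrophage markers summed to 4665 to 5317 FPKM in the controls and 4939, 4872 and 5439 FPKM in the pre-AML libraries, most of it from Lyz2 and Fcer1g, with Ly86 at 0 in all controls. T and NK cell markers summed to 19.1 to 28.6 FPKM in the controls and 36.3, 34.5 and 46.5 FPKM in the pre-AML libraries, led by Nkg7 and Gzma, with Cd3g, Cd2 and Ncr1 at 0 in all controls. The part of these cells in the values of Mcub, Slc8b1 and Letm1 was not tested. Pre-AML 3 also had the most listed genes above 0, 13571 against 11301 to 12609 in the other libraries.

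Over the 6 tested genes together, 0 had an adjusted p under 0.05 by limma-trend, and 0 did by limma-voom on recovered reads. Among all tested genes 0.0227% passed in the higher direction, which is the 1 gene Gzma, and 0% in the lower. At an unadjusted p under 0.05, Vdac2 and Vdac3 were the 2 lower genes by either tool, where 6.53% of all tested genes were lower, and 0 were higher, where 2.56% were higher. This count of 2 was 0 with length and GC trends removed and without control 1, control 2 or pre-AML 2, and it was 1 with the median of ratios and without control 3 or pre-AML 3. Rescaling to equal sums left Vdac3 lower and put Smdt1 higher at an unadjusted p under 0.05. Log2 fold changes were below 0 for 5 of the 6 genes, beside 58.5% of all tested genes, and above 0 for 1, beside 41.5%. Their median was -0.23, and that of all tested genes -0.055. Without pre-AML 3, the VDAC genes were the 3 genes lower without overlap, beside 15.1% of all tested genes. Groups that do not overlap cannot come to overlap when a library is left out, so this outcome was fixed beforehand. Smdt1 was the 1 gene higher without overlap when pre-AML 3 was left out, beside 12.0%. Then 5 of the 6 again lay below 0, beside 53.6% of all, and the median was -0.12 for the 6 genes, against -0.021 for all.

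Genes that work with these channels were described by lists, each without the 9 genes above. Across all tested genes, 58.5% had a log2 fold change below 0 and 41.5% above 0, the background for the counts of each list. Of 17 uniporter partners, 9 were tested and 0 passed the test in either direction, with 3 above and 6 below a log2 fold change of 0 and a median of -0.050. Ghitm and Slc25a12, picked after their values were seen, were the 2 of 9 genes lower without overlap, beside 12.8% of all tested genes. Mcur1, which encodes a scaffold factor of the uniporter, had the smallest p of the list, at a log2 fold change of -0.32 (limma-trend adjusted p = 0.523). Micu3 was below the filter in all libraries, at 0.0108 to 0.0692 FPKM.

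The list of contacts between endoplasmic reticulum and mitochondria had 7 tested genes of 14, with 0 past the test. Of the 7, 6 were below 0, beside 58.5% of all tested genes, with a median of -0.16. Without pre-AML 3, 4 of 7 were below 0, beside 53.6% of all, with a median of -0.064. Fundc1, a mitophagy receptor of the outer membrane, led the list with 26.4, 24.1 and 25.4 FPKM in the controls and between 13.9 and 23.6 FPKM in the pre-AML libraries. It was the 1 of 7 genes lower without overlap, beside 12.8% of all tested genes. Its log2 fold change was -0.39 (limma-trend adjusted p = 0.522), or -0.18 without pre-AML 3.

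Of 17 listed VDAC partners and genes of the permeability transition, 13 were tested, with 8 above and 5 below 0, a median of 0.015 and 0 past the test. Bak1, the effector that VDAC2 holds, had 1.66, 0.650 and 1.08 FPKM in the controls and 2.06, 1.68 and 1.51 FPKM in the pre-AML libraries, a log2 fold change of 0.39 (limma-trend adjusted p = 0.529) on at least 22 reads per library.

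Mitochondrial enzymes that calcium activates, with citrate synthase beside them, had 8 tested genes of 13. Of these, 5 were above and 3 below 0, with a median of 0.040 and 0 past the test. Cs, for citrate synthase, was at 1.78, 1.60 and 0.862 FPKM in the controls and 1.90, 1.79 and 4.98 FPKM in the pre-AML libraries. Its log2 fold change of 0.62 (limma-trend adjusted p = 0.522) was 0.26 without pre-AML 3.

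Other proteins of the outer membrane had 8 tested genes of 21, with 5 above and 3 below 0, a median of 0.070 and 0 past the test over all genes. Tomm22, the receptor subunit of the import pore, was the 1 lower gene of 8 at an unadjusted p under 0.05, beside 6.53% of all tested genes. It had 11.6, 11.4 and 11.5 FPKM in the controls and 8.88, 9.39 and 7.55 FPKM in the pre-AML libraries, a log2 fold change of -0.38 (standard error 0.13, limma-trend adjusted p = 0.522), and -0.30 without pre-AML 3.

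**Figure D4:**
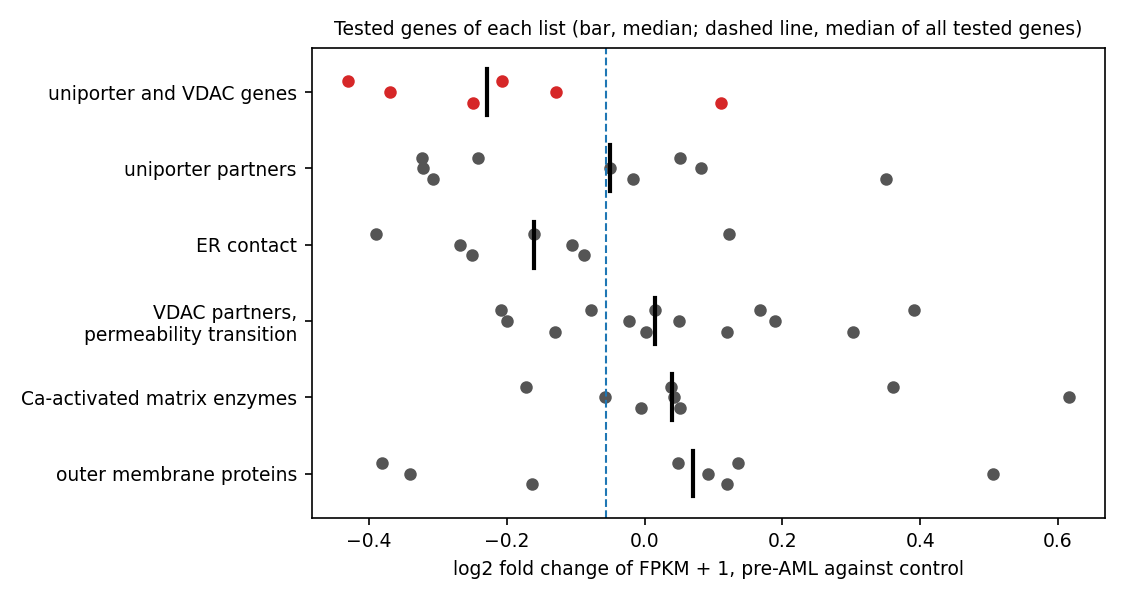
Log2 fold change of FPKM + 1 in pre-AML against control platelets for each tested gene of the 9 chosen genes and of 5 pathway lists; points are genes, black bars medians, and the dashed line the median of all tested genes at -0.055. The medians are -0.23 for the uniporter and VDAC genes and between -0.16 and 0.070 for the other lists.

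Among 4406 other tested genes, those whose log2(FPKM + 1) over the 6 libraries was most like that of Vdac3 were Rnf11, Sdcbp and Scamp1 (Pearson r of 0.999, 0.998 and 0.997). For Mcu, Xpnpep1 and Rasa3 were among the most alike (r of 0.974 and 0.972). Among the chosen genes, Vdac1 and Vdac3 were the most alike over 6 libraries, with r of 0.951, but r was 0.710 without pre-AML 3, where Mcu and Vdac1 led with 0.866. Mcu and Micu2 had r of 0.809, or 0.813 without pre-AML 3. All libraries share these scalings and the values are given as descriptions over 6 points.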

How the data were processed

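The authors mapped reads to mm10 with STAR (2.5.2b) and used DESeq2 for their own tests, and the authors deposited FPKM values for each gene and library. The counting program is not given in the sources used here. No value columns were left unused (0). Union exon lengths of GENCODE M21 (GRCm38) turned 85.3% of the values into whole reads within 0.02 reads, and into whole reads in all libraries for 12214 genes and for 8 of the 9 members. The reads of Vdac3 are estimates.

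Values were analysed as log2(FPKM + 1) over genes whose mean reached 1 FPKM, with limma-trend (limma 3.58.1, R 4.3.3), no covariates, Benjamini-Hochberg adjustment over 4412 genes and a threshold of 0.05, two-sided. A fold change on this scale understates that of low genes. Shares and ratios were compared by exact permutation tests (Python 3.11.15). Gene lengths of coding transcripts, the ratio of Vdac3 to Smdt1, and shares and ratios with length and GC trends removed were added after seeing the data. The fit was tested on simulated data, in which it called 181 of 181 genes that had been given a 4-fold change and 8 of 4132 unchanged genes, 4313 genes in all. The simulated counts had a fixed spread (negative binomial dispersion of 0.03), no outlying library and no trend with GC content. They therefore cannot show the power or error of the fit at the smaller changes of the members.

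The members and lists were chosen with earlier results of these data known. From each pathway list, the genes with the smallest p, and from each marker list those of the highest level, were to be named, as were the genes most like Mcu and Vdac3, of which 1 is not reported here. Micu3 and the markers named as being at 0 were picked once values were known. Alternatives covered scaling, filter, pseudocount, library weights, base composition, a replicate block and each library left out.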

Additional observations from a re-analysis of the deposited data

How the results depend on the processing

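Of 210 values under alternatives, 182 kept their direction and side of the threshold, or their count within 1.5 times, and 7 turned their sign. None of the 6 tested genes passed the threshold under any of 15 alternatives, and the signs of Vdac1, Vdac2, Vdac3, Mcu and Smdt1 held in all in which each was tested. Mcu and Vdac2 have no value with a minimum of 5 FPKM. The log2 fold change of Micu2 was 0.034 with libraries rescaled, 0.019 with length and GC trends removed, and -0.35 to 0.00078 with each library left out. The difference in the Vdac2 share was -0.28 to 0.059 percentage points with each library left out, above 0 without control 2 (0.059) and without pre-AML 2 (0.040). With trends removed, the differences in share were 1.61 percentage points for Vdac3 and -1.41 for Vdac1, against -2.57 and 2.68 as deposited. The number of all genes past the threshold and higher was 1, and it was 0 with no filter, with a minimum of 5 FPKM, with libraries rescaled, with trends removed and by limma-voom on recovered reads, 2 with array weights, and 0 to 2 with each library left out (0 without control 1 or control 3, 2 without pre-AML 3). The number lower was 0 throughout. With no adjustment, 113 genes had a p under 0.05 and a higher level and 288 a lower level, against 275 and 194 with libraries rescaled, 497 and 373 with no filter, 234 and 251 with the median of ratios, 49 and 217 with a minimum of 5 FPKM, 303 and 453 with array weights, and 143 and 144 with trends removed. Without control 1 these were 69 and 132, without pre-AML 1 200 and 447, and 188 were lower without control 2. The causes of these shifts were not tested.

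Same-numbered libraries did not deviate together (correlations of -0.043, -0.12 and -0.17 over tested genes), and not every library correlated best with its own number. Deviations were taken from means of 3 libraries, and pre-AML 3 stood far apart. These correlations therefore cannot show whether the numbers pair the samples. With the replicate block, 1 gene was higher and 0 lower past the threshold, as without it, and 0 of the 6 genes had an unadjusted p under 0.05, against 2 without it. With the replicate block the log2 fold change of Vdac3 was -0.43 (limma-trend adjusted p = 0.576).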

Other observations

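In several families that work with these channels, 1 paralogue held nearly all of the FPKM in platelets, a pattern chosen after the values were seen. Of the 3 inositol trisphosphate receptors, which release calcium from the endoplasmic reticulum toward mitochondria, Itpr2 held 99.5% ± 0.0723 (SD, n = 3) among controls, against 98.4% ± 1.74 (SD, n = 3) among pre-AML libraries. Of the 3 hexokinases listed, Hk1 held between 95.7% and 100% in every library. The aspartate-glutamate carrier, whose activity responds to cytosolic calcium, was almost wholly Slc25a12, at 92.5% to 99.5%, and the ATP-Mg carrier was mostly Slc25a24, at 89.0% to 97.5%. The lowest share of each of these 4 leading paralogues was in pre-AML 3, where Hk3 held 4.04% and Slc25a13 7.48%.

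The adenine nucleotide translocases were mixed, with 62.8% ± 5.99 (SD, n = 3) for Slc25a4 among controls, against 64.2% ± 9.37 (SD, n = 3) among pre-AML libraries.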
